A study of Mus musculus with 5 samples.

Results

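The frizzled and LRP genes examined here encode the receptors for Wnt ligands at the cell surface. The genes were 8 frizzled genes (*Fzd1* to *Fzd8*) and the co-receptor genes *Lrp5* and *Lrp6*, taken by gene name with earlier results of these data known. All probe sets annotated to 1 of these 10 genes were included, 26 of the 45101 probe sets on the array, against 18193 genes represented in all. RNA was measured in optic nerves of C57BL/6 mice aged P35 to P45 after 3 days in organotypic culture with LY294002, an inhibitor of PI3K that also binds other kinases and bromodomain proteins. There were 3 arrays of nerves with the low dose (L-LY29) and 2 of nerves with the high dose (H-LY29). The sample labels give 0.5 µM for L-LY29 and 50 µM for H-LY29. The text of the study names a higher concentration for L-LY29 in adult nerves than the labels do, and which was used was not settled here. The treatment entries of the labels spell the compound LY295002, taken here as the same compound. Nerves without the compound were not analysed here, and each difference below compares the doses, L-LY29 minus H-LY29, in log2 units of signal. The methods describe nerves taken out with the retina and then cleared of the arachnoid and of adhering tissue. Which nerves or mice went to which array is not stated, so a p-value covers the spread among these arrays and nothing wider.

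Wnt proteins bind the cysteine-rich domain of a frizzled receptor, a protein with several membrane passes, together with LRP5 or LRP6, which cross the membrane once. Binding brings dishevelled to the frizzled tail and axin to the LRP tail, which halts the breakdown of β-catenin and lets it act with TCF and LEF factors on target genes. Frizzled receptors also act without LRP5 or LRP6 in planar cell polarity and in calcium signalling. In the oligodendrocyte lineage strong β-catenin signalling is known to hold back the differentiation of OPCs, while milder Wnt input can favour their formation.

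Arrays of a dose correlated at 0.990 to 0.995 over all probe sets and arrays of different doses at 0.882 to 0.892 (Pearson). The RNA controls added to the sample before labelling had a mean signal of 10.22 in L-LY29, against 3.17 in H-LY29. The median signal of an array was 5.33 to 5.35 for L-LY29, against 5.54 to 5.56 for H-LY29. Signal at the 3′ end minus that at the 5′ end, a reading of RNA quality, was 0.43 in L-LY29 and 0.92 in H-LY29 for actin, and −0.13 in L-LY29 and 0.69 in H-LY29 for *Gapdh*. These features separate the same arrays as the dose does, and their part in the results cannot be told apart from it. As a guide to low signal, 43 probe sets of olfactory receptor genes, which nerve tissue is not known to use, had a 95th percentile of 4.89 in L-LY29 and 3.98 in H-LY29. Signals below these values are called low here.

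Most frizzled and LRP probe sets had less signal with the low dose than with the high dose. Of the 23 that passed a filter on mean signal, 17 were lower in L-LY29, 4 were higher and 2 missed the threshold (limma across all probe sets, Benjamini-Hochberg adjusted p under 0.05). Over all probe sets tested 72.8% were called, 43.7% lower and 29.0% higher. The median difference of the 23 was −1.47, against −0.20 over all probe sets tested. The 3 probe sets under the filter belong to *Fzd1*, *Fzd4* and *Fzd8*. With no filter, 16 of all 26 were lower, 4 higher and 6 did not pass, where 62.1% of all probe sets were called, 33.2% lower and 28.9% higher. The doses did not overlap in 21 of the 23, as in 82.0% of all probe sets tested, nor in 23 of the 26, as in 74.6% of all probe sets without a filter. With each gene represented by its brightest probe set, 8 of the 10 genes were lower (*Fzd1*, *Fzd2*, *Fzd5*, *Fzd6*, *Fzd7*, *Fzd8*, *Lrp5* and *Lrp6*), *Fzd4* was higher and *Fzd3* did not pass, against 73.8% called, 46.6% lower and 27.1% higher, among all 12935 genes tested. The doses did not overlap for 9 of the 10 genes, and for 83.1% of all genes tested. Of the 10, 5 were lower by at least 2 log2 units, as were 11.4% of all genes tested, a size chosen after the values were seen. In whole nerves fewer cells of a type and less RNA per cell cannot be told apart.

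**Figure D1:**
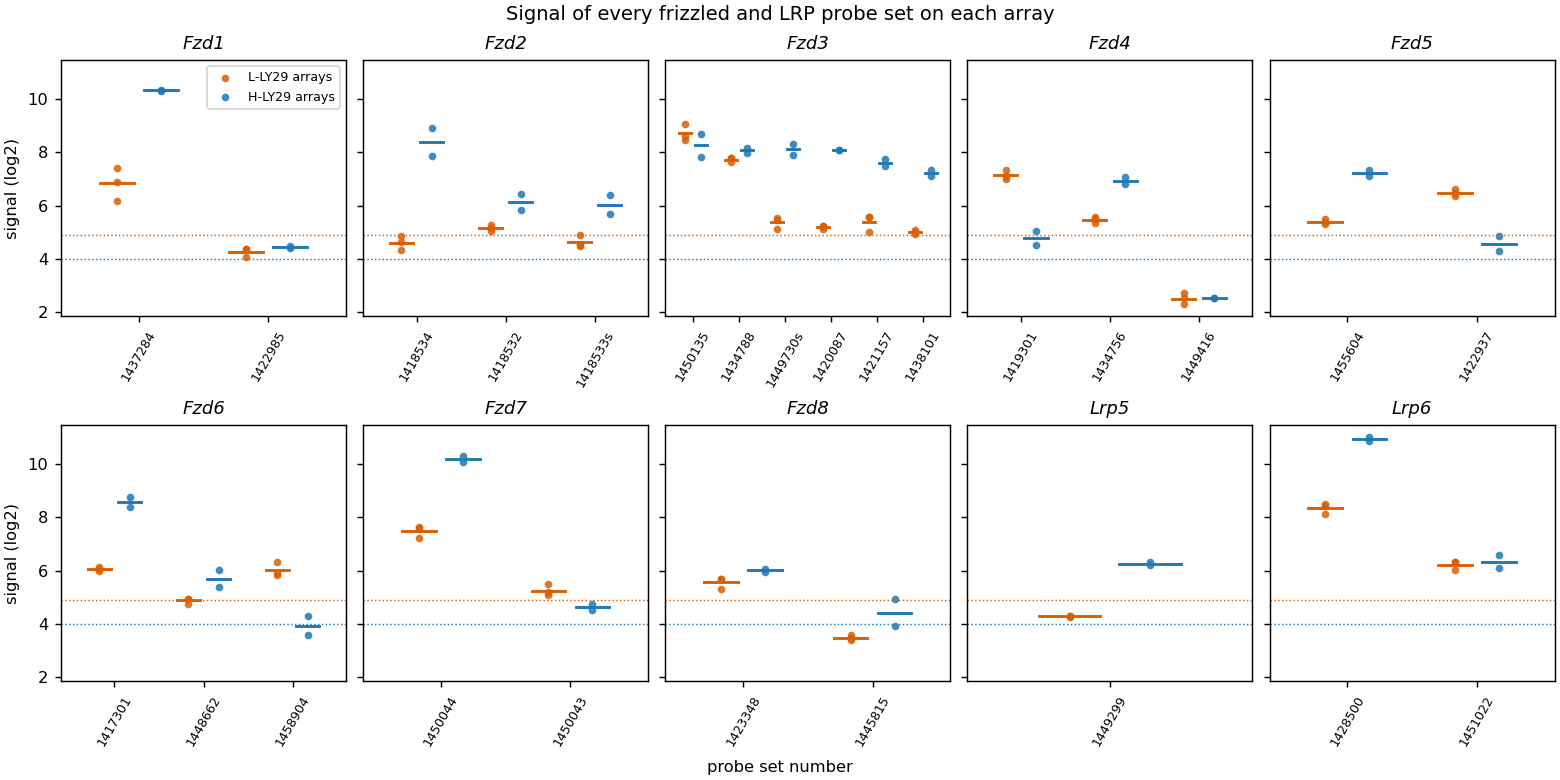
Signal (log2, vertical axis) of the 26 probe sets of the 10 genes on each array, with L-LY29 arrays (3 orange points) left of H-LY29 arrays (2 blue points) for each probe set and short lines at the means. Dotted lines mark the 95th percentile of olfactory receptor probe sets, 4.89 in L-LY29 and 3.98 in H-LY29. The brightest probe sets of *Fzd1*, *Fzd7* and *Lrp6* lie above 10 on both H-LY29 arrays and below 9 on all L-LY29 arrays.

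The co-receptor *Lrp6*, the LRP that most tissues need for β-catenin signalling, had a signal of 8.13, 8.49 and 8.43 in L-LY29 and of 11.03 and 10.87 in H-LY29 on probe set 1428500_at. The L-LY29 arrays lay well below both H-LY29 arrays, with a difference of −2.60 (standard error 0.13, adjusted p = 8.01e-05). The other probe set of *Lrp6*, 1451022_at, had 6.01, 6.33 and 6.33 in L-LY29 and 6.59 and 6.08 in H-LY29. There the doses overlapped and the difference of −0.11 did not pass the test (standard error 0.20, adjusted p = 0.633). *Lrp5*, the related co-receptor known for its part in bone mass and in retinal vessels, is represented by 1 probe set. Its signal was 4.30, 4.27 and 4.28 in L-LY29 and 6.19 and 6.33 in H-LY29, a difference of −1.98 (standard error 0.09, adjusted p = 6.85e-05). All 3 L-LY29 values were low, under the olfactory receptor level, so the size of this difference is not read as a fold.

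*Fzd1*, *Fzd2* and *Fzd7* form one branch of the family, whose members share much of their sequence and can act in the β-catenin branch. *Fzd1* had a signal of 6.90, 6.18 and 7.42 in L-LY29 and of 10.30 and 10.35 in H-LY29 on probe set 1437284_at. The H-LY29 arrays were close together and far above the L-LY29 arrays, which spread more than those of any other member (SD 0.62). The difference was −3.49 (standard error 0.37, adjusted p = 6.70e-04). The other *Fzd1* probe set, 1422985_at, was dim at both doses, with means of 4.26 in L-LY29, against 4.44 in H-LY29, and fell under the filter. *Fzd2* had 4.34, 4.84 and 4.64 in L-LY29 and 8.93 and 7.86 in H-LY29 on probe set 1418534_at, a difference of −3.79 (standard error 0.35, adjusted p = 4.51e-04). Its L-LY29 signals were low, so that the size is not read as a fold, and its H-LY29 arrays differed by more than 1 log2 unit from each other. Its other 2 probe sets were lower as well, at −0.98 (1418532_at, adjusted p = 0.00889) and −1.41 (1418533_s_at, adjusted p = 0.00562). All 3 *Fzd2* probe sets were designed on the same sequence entry, and the ending _s_at marks probes that may match more than one transcript. *Fzd7* had 7.59, 7.22 and 7.62 in L-LY29 and 10.10 and 10.30 in H-LY29 on probe set 1450044_at, a difference of −2.72 (standard error 0.15, adjusted p = 9.98e-05). On its other probe set, 1450043_at, it was higher in L-LY29, at 5.48, 5.18 and 5.10 against 4.75 and 4.50 in H-LY29, by 0.62 (adjusted p = 0.0186). That call ended without H-LY29 replicate 1 (adjusted p = 0.0573), without H-LY29 replicate 2 (0.126) and under a rule that also asks for a fold over 1.8. Over 14 alternatives its adjusted p was 0.00509 to 0.126.

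Promoter sequences from RefSeq (GRCm38.p6) were held for 4 of the 10 genes, *Fzd1*, *Fzd4*, *Fzd5* and *Fzd7*. The 250 bases before the start of *Fzd1* and *Fzd7* are shown because both genes were lower in L-LY29 on their brightest probe set and their windows differ in base composition. Capitals mark matches on either strand to any of 5 short motifs. The GC box was searched for as GGGCGG, the letters that Sp1 and related factors are known to bind. The CCAAT box, which the factor NF-Y binds, was searched for by the letters of its name. Of the core that TCF and LEF factors bind, through which β-catenin acts, only the form TCAAAG was searched for. For forkhead factors, FoxO among them, which PI3K signalling is known to restrain, the letters were GTAAACA. The TATA box, where transcription can be positioned, was searched for as TATAAA. Matches that overlap each other were each counted, and no match overlapped a match to another motif in these windows.
*Fzd1* (chr5:4758217-4758466, minus strand): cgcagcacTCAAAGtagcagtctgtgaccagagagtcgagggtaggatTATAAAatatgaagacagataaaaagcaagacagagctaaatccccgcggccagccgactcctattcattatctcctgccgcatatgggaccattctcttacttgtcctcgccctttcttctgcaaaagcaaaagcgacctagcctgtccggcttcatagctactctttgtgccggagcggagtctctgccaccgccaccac
*Fzd7* (chr1:59481897-59482146, plus strand): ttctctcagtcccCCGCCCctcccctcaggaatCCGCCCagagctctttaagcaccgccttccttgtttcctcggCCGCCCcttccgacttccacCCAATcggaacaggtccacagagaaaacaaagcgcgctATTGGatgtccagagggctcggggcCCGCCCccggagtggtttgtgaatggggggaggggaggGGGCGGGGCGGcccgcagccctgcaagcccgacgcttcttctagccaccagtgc
The *Fzd1* window held 51.2% G and C, near the median of 52.4% over 32851 promoter windows. It had 1 match to TCAAAG, 1 TATA box and 0 GC boxes. The *Fzd7* window held 65.2% G and C with 6 GC boxes, 2 CCAAT boxes and 0 matches to TCAAAG. It does hold the letters ACAAAG, a form that was not searched for, so a TCF and LEF core is not excluded there. Of all windows, 32.7% held a GC box, 33.8% a CCAAT box, 13.8% a TCAAAG, 12.4% a TATA box and 3.17% a forkhead core. Of the 4 frizzled windows 0 held a forkhead core. A match gives letters only and does not show that a factor binds.

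*Fzd3* and *Fzd6* act mainly in planar polarity, in which *Fzd3* guides growing axons and *Fzd6* orients hair. *Fzd3* has 6 probe sets, of which 5 were lower in L-LY29. Probe set 1420087_at had 5.24, 5.23 and 5.11 in L-LY29 and 8.09 and 8.07 in H-LY29, a difference of −2.89 (standard error 0.09, adjusted p = 4.03e-05). Probe sets 1449730_s_at, 1421157_at and 1438101_at were lower too, at −2.74, −2.23 and −2.21 with adjusted p of 1.97e-04, 5.26e-04 and 8.41e-05. The values of these 4 probe sets ran over 4.92 to 5.57 on L-LY29 arrays and over 7.11 to 8.31 on H-LY29 arrays, with no overlap. The brightest probe set of *Fzd3*, 1450135_at, differed from them, at 8.62, 8.47 and 9.06 in L-LY29 and 7.83 and 8.68 in H-LY29. The doses overlapped there, and the difference of 0.46 did not pass the test (standard error 0.31, adjusted p = 0.234). It passed only after quantile normalization, at 0.91 (adjusted p = 0.0400, and 0.0400 to 0.941 over 15 alternatives). Probe set 1434788_at had 7.77, 7.63 and 7.77 in L-LY29 and 8.17 and 7.98 in H-LY29, a smaller difference of −0.35 (standard error 0.10, adjusted p = 0.0274). The adjusted p of 1434788_at was above 0.05 in 7 of 15 alternatives (0.0256 to 0.287 over all 15). The call ended without L-LY29 replicate 1, 2 or 3 or H-LY29 replicate 1 and with a fold over 1.8 required, and the sign turned after quantile normalization, at 0.16.

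*Fzd6* had a signal of 6.06, 5.98 and 6.15 in L-LY29 and of 8.76 and 8.38 in H-LY29 on probe set 1417301_at. The arrays of the 2 doses were far apart, with a difference of −2.51 (standard error 0.14, adjusted p = 1.07e-04). Probe set 1448662_at was lower as well, at −0.82 (standard error 0.21, adjusted p = 0.0178), a call that ended without L-LY29 replicate 2 (adjusted p = 0.0605, and 0.00957 to 0.0605 over 14 alternatives) and under the rule that also asks for a fold over 1.8. The third, 1458904_at, was higher in L-LY29, with 6.33, 5.82 and 5.91 against 4.30 and 3.57 in H-LY29. It differed by 2.09 (standard error 0.28, adjusted p = 0.00161). Its H-LY29 mean of 3.93 was low. When its 3 probe sets were averaged, the difference of *Fzd6* was −0.41 and did not pass (adjusted p = 0.114).

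*Fzd4*, the receptor for norrin as well as Wnt ligands and needed for the growth of retinal vessels, was the only gene of the 10 whose brightest probe set was higher in L-LY29. On probe set 1419301_at it had 7.13, 7.32 and 6.98 in L-LY29 and 5.04 and 4.51 in H-LY29. All L-LY29 arrays lay above both H-LY29 arrays, by 2.37 (standard error 0.20, adjusted p = 3.39e-04). Probe set 1434756_at went the other way with 5.35, 5.58 and 5.48 in L-LY29 and 6.82 and 7.05 in H-LY29. Its difference was −1.47 (standard error 0.13, adjusted p = 3.46e-04). Both calls passed under each of the 14 alternatives run on them. The third, 1449416_at, was low on every array, with means of 2.50 in L-LY29 and 2.53 in H-LY29. The direction of *Fzd4* differed between its probe sets. The brightest was chosen by the mean over all 5 arrays, 3 of them L-LY29, which gives that dose more weight. These means were close, at 6.20 for 1419301_at and 6.06 for 1434756_at. The *Fzd4* promoter window is shown as that of the member whose brightest probe set was higher in L-LY29, marked as above.
*Fzd4* (chr7:89404116-89404365, plus strand): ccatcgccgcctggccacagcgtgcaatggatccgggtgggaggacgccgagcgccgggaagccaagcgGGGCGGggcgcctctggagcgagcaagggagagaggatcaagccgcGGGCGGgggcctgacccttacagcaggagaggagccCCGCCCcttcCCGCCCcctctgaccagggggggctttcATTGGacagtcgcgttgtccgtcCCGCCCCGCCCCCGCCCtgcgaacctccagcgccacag
It held 72.8% G and C, 7 GC boxes, 1 CCAAT box and 0 matches to TCAAAG. The window of *Fzd5*, not shown, held 76.4% G and C and 9 GC boxes.

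*Fzd5* and *Fzd8*, a close pair that can act in the β-catenin branch and that takes part in eye development, were both called lower in L-LY29 on their brightest probe set. *Fzd5* had 5.39, 5.32 and 5.47 in L-LY29 and 7.13 and 7.33 in H-LY29 on probe set 1455604_at, a difference of −1.83 (standard error 0.11, adjusted p = 1.29e-04). Probe set 1422937_at was higher in L-LY29, with 6.36, 6.48 and 6.61 against 4.29 and 4.86 in H-LY29, by 1.91 (standard error 0.20, adjusted p = 6.65e-04). The doses did not overlap on either probe set, and with the mean of both the difference of *Fzd5* was 0.0368 and did not pass (adjusted p = 0.830). *Fzd8* had the smallest difference among the genes called, with 5.68, 5.31 and 5.68 in L-LY29 and 5.96 and 6.07 in H-LY29 on probe set 1423348_at. The difference of −0.46 (standard error 0.15, adjusted p = 0.0437) did not pass in 10 of 14 alternatives, among them a rule that also asks for a fold over 1.8, the fit with no filter (adjusted p = 0.0541) and each of the 5 in which 1 array was left out (0.0622 to 0.200). The other *Fzd8* probe set, 1445815_at, fell under the filter, at 3.40, 3.57 and 3.46 in L-LY29 and 3.90 and 4.92 in H-LY29.

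**Figure D2:**
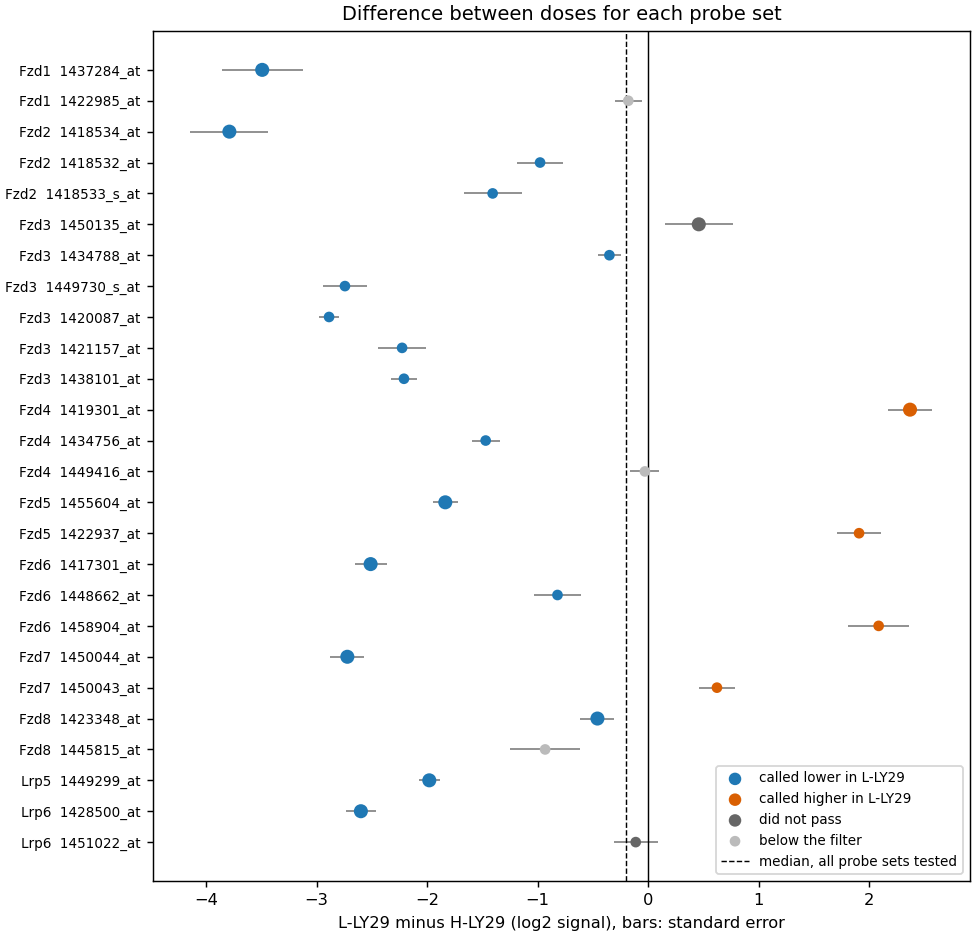
Difference between the doses (L-LY29 minus H-LY29, log2 signal, horizontal axis) of each of the 26 probe sets, with bars for 1 standard error and larger points for the brightest probe set of a gene. Blue points were called lower in L-LY29 (17), orange points higher (4), dark grey points did not pass (2) and light grey points lay below the filter (3, with standard errors from the fit with no filter). The dashed line is the median of all probe sets tested, −0.20.

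Probe sets of one gene often disagreed. Of the 6 members with at least 2 called probe sets, 4 were called in both directions (*Fzd4*, *Fzd5*, *Fzd6* and *Fzd7*), and 2 (*Fzd2* and *Fzd3*) in 1 direction. Over all 4197 genes with at least 2 called probe sets, 43.3% were called in both directions. For the 6 members *Fzd1*, *Fzd2*, *Fzd3*, *Fzd8*, *Lrp5* and *Lrp6*, each called probe set was lower in L-LY29. However, *Fzd1*, *Fzd8*, *Lrp5* and *Lrp6* had only 1 called probe set each, which could not disagree with another. Low signal touched some of these calls. Of the 23 tested probe sets, 4 were low in L-LY29 (2 of *Fzd2*, 1 of *Fzd6* and that of *Lrp5*) and 1 was low in H-LY29 (1458904_at of *Fzd6*). Passing the filter rested on the brighter dose for 6 of the 23, since the mean of the other dose lay under the filter value of 4.77. These were 3 that were higher in H-LY29 and 3 that were higher in L-LY29.

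Other Wnt receptors and co-receptors were also mostly lower in L-LY29, at 12 of 16 genes, with 1 higher and 3 not passing, where 46.6% of all genes tested were lower and 27.1% higher. They had a median difference of −2.19 (−2.25 for the 10 members and −0.26 for all genes). The glypican *Gpc6* had a signal of 4.78 in L-LY29 and 9.29 in H-LY29 (−4.51, adjusted p = 4.04e-05), low in L-LY29. *Lrp4*, an LRP best known at the neuromuscular junction, was at −4.02 (adjusted p = 7.04e-05), and *Tspan12*, the tetraspanin that assists *Fzd4* in norrin signalling, at −2.27 (adjusted p = 9.29e-05). The signal of *Tspan12* was the same, 7.27, on all 3 L-LY29 arrays, so its measured spread came from the H-LY29 arrays alone. *Fzd9* was at −2.12 (adjusted p = 1.72e-04). The gene called higher was *Fzd10*, by 1.50 (adjusted p = 0.00368), named after its value was seen. Among genes of receptor turnover and folding, 7 of 11 were lower and 2 higher, against the same shares of 46.6% and 27.1%. *Shisa2*, which holds back frizzled receptors in the endoplasmic reticulum, was at −4.10 with a low L-LY29 signal of 3.34. *Rnf43*, a ligase that removes frizzled receptors from the surface, was at −2.25 with a low L-LY29 signal of 4.42, *Lgr4*, a receptor for R-spondins, at −1.82, and the clathrin adaptor subunit *Ap2m1* at −0.90.

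Among ligands and the factors that make or carry them the directions were split, with 7 of 17 tested genes higher in L-LY29, 8 lower and 2 not passing, and a median of −0.17. The share lower was near the 46.6% of all genes tested. *Wnt5b* was lower, at −3.81 with a low L-LY29 signal of 3.65, as were *Rspo3*, an R-spondin, at −2.10 with a low L-LY29 signal of 4.27 and *Porcn*, the acyltransferase that lipidates Wnt proteins, at −2.07. *Wls*, the carrier that brings Wnt proteins to the surface, was higher by 1.32 (adjusted p = 2.14e-04). Of 7 secreted inhibitors tested 4 were lower and 1 higher (46.6% and 27.1% of all genes), with *Dkk3* at −3.44, *Frzb* at −1.87 and *Igfbp4* at −0.63, and *Notum*, which strips the lipid from Wnt proteins, at 0.74. The other 9 of 26 genes in the ligand list and 8 of 15 in the inhibitor list fell under the filter.

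Inside the cell, dishevelled, axin and kinase genes went both ways, with 8 of 18 lower, 6 higher and 4 not passing (median −0.08), a share lower near the 46.6% of all genes. *Gsk3b*, the kinase that marks β-catenin for destruction, was at −2.82 on its brightest probe set, with 3 of its 6 probe sets called lower and 1 higher. *Dvl1*, a dishevelled gene, was at −0.92, and the kinase gene *Csnk1e* was higher, by 2.01. Of 14 planar polarity genes 9 were lower and 3 higher (46.6% and 27.1% of all genes), with a median of −0.77. The cadherins *Celsr2* and *Celsr1* were at −4.02 and −3.65 (the second low in L-LY29), *Prickle1* at −3.02 with another probe set higher, and *Daam2* at −0.70. Of 17 genes of β-catenin transcription and its targets 11 were lower, 3 higher and 3 not passing (46.6% lower and 27.1% higher over all genes), with a median of −1.71. *Axin2*, the feedback inhibitor often read as a marker of β-catenin signalling, had 6.11, 6.16 and 5.94 in L-LY29 and 9.07 and 9.15 in H-LY29. The arrays of the 2 doses were far apart, with a difference of −3.05 (standard error 0.10, adjusted p = 4.84e-05), on the single *Axin2* probe set that passed the filter. *Pygo2* was at −2.87, *Ccnd2* at −2.75 with all 7 of its probe sets lower, and *Ccnd1* at −2.14 on its brightest probe set, where 2 of its 3 probe sets were higher. These lists were counted and not tested as sets.

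**Figure D3:**
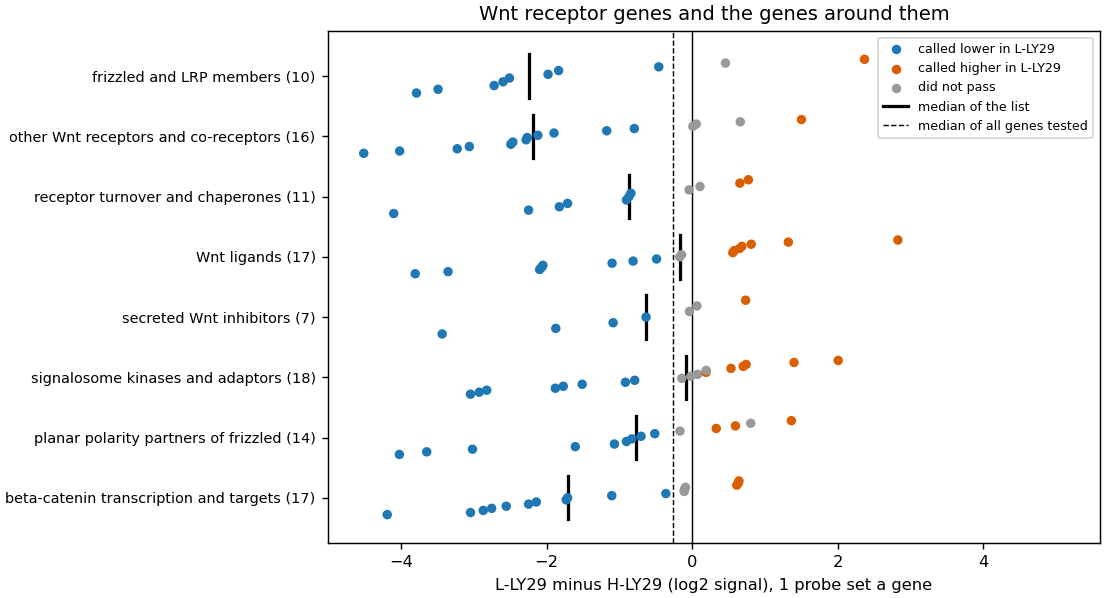
Difference between the doses (L-LY29 minus H-LY29, log2 signal, horizontal axis) of each tested gene, by its brightest probe set, in the receptor list and the 7 lists around it, with the number of tested genes in brackets. Blue points were called lower in L-LY29, orange points higher and grey points did not pass, with black bars at the list medians and the dashed line at the median of all genes, −0.26. The medians of the members and of other receptors are −2.25 and −2.19, and that of ligands is −0.17.

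Markers of the cell types in the nerve, and of the retina and ocular surface outside it, also differed between these arrays. Of all genes tested 46.6% were lower in L-LY29 and 27.1% higher. Counts such as 4 of 7 astrocyte markers and 3 of 7 OPC markers lower lie near the first share. Of 6 oligodendrocyte markers tested 4 were higher in L-LY29, such as *Mbp* at 0.35, and 2 lower, such as *Mog* at −1.13. Their summed signal was 15.94 to 15.99 (log2) in L-LY29, against 15.67 to 15.72 in H-LY29. Of 7 fibroblast and meningeal markers, among them *Col1a1* at −6.64 and *Col1a2* at −2.61, 6 were lower in L-LY29 and 1 higher, with summed signals of 11.30 to 11.74 in L-LY29, against 13.44 to 13.76 in H-LY29. Of 6 tested pericyte and smooth muscle markers 4 were lower and 0 higher, with sums of 9.03 to 9.26 in L-LY29, against 10.11 to 10.30 in H-LY29. *Pdgfrb* and *Rgs5* of that list were at −3.97 and 0.01, the second not passing. Of 7 astrocyte markers 4 were lower and 1 higher, with sums of 13.97 to 14.22 in L-LY29, against 14.29 to 14.37 in H-LY29. *Gfap* and *Aqp4* were at −0.33 (not passing, adjusted p = 0.118) and −2.94. Microglial markers such as *Cx3cr1* at 1.91 and *P2ry12* at 0.62 went the other way, with 6 of 7 higher in L-LY29 and sums of 13.20 to 13.39 in L-LY29, against 11.90 to 12.15 in H-LY29. Endothelial markers, among them *Cldn5* at 1.15 and *Pecam1* at 1.87, were higher for 3 of 6 and lower for 1, with sums of 9.86 to 10.22 in L-LY29, against 9.63 to 9.76 in H-LY29. OPC markers were lower for 3 of 7, *Pdgfra* at −1.54 and *Cspg4* at −1.09 among them, and higher for 1. Of the 2 tested *Cspg4* probe sets 1 was lower and 1 higher. The sums of the OPC markers overlapped at 12.08 to 12.35 in L-LY29, against 12.23 to 12.34 in H-LY29. *Olig1*, the marker called higher, was at 1.55, against −1.14 for *Olig2*. On the low-dose arrays *Olig1* and *Sox10* (0.05, not passing) were the brightest of the list and weigh most in the sums there. The overlap therefore does not show that each OPC marker was alike at both doses. Of 4 tested retinal markers 2 were higher and 1 lower, with sums of 10.01 to 10.24 in L-LY29, against 8.79 to 9.23 in H-LY29. *Sag* and *Rbpms* of that list were at −0.01 (not passing) and −2.52. Of 7 markers of the ocular surface epithelium 6 were higher in L-LY29, with sums that spread from 11.83 to 14.41 over the L-LY29 arrays and lay at 6.97 to 7.37 in H-LY29, where *Psca*, *Asprv1* and *Calml3* were low. *Krt12* and *Krt5* of that list were at 6.07 and 4.06. The SDs of the 26 receptor probe sets over the L-LY29 arrays, 0.0125 to 0.62, are not comparable with the range of the epithelial sums. The part of these cell types in the receptor differences was not tested.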

How the data were processed

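Biotin-labelled cRNA of each optic nerve sample was hybridised to an Affymetrix GeneChip mouse genome array. The authors read the images in GeneChip Operating Software and normalised the data in GeneSpring by MAS-5. The deposited values are signals on the log2 scale, and no scaling target is stated. Exactly equal values occurred at 8199 to 8963 probe sets between L-LY29 arrays, 1940 between the H-LY29 arrays and 3206 to 3347 between doses. Members had such ties between L-LY29 arrays too, as *Fzd8* on 1423348_at and *Fzd3* on 1434788_at. Ties within a dose lower the measured spread, so p-values may be too small. Whether the named algorithm made the values was not settled. Samples were grouped by the dose in their titles. Values were used as deposited, with no pseudocount. Probe sets were named through the platform annotation, and the 34945 naming 1 gene were kept. Those with a mean under the 40th percentile (4.77) were left out, which kept 23456 probe sets and 12935 genes. The doses were compared with limma 3.58.1 in R 4.3.3 (lmFit, eBayes with an intensity trend, two-sided), after a check on simulated arrays, with Benjamini-Hochberg adjustment over all features tested. The brightest probe set, by its mean over the 5 arrays, stood for a gene. All members are named, with up to 4 genes of each other list by smallest adjusted p and no overlap, and the first 2 markers of each cell type. The members and lists were chosen with earlier results of these data known. Some genes of the lists are not reported here. The number of arrays limits the precision. Alternatives were filters, floors, normalizations, the variance model, the replicate block, the call rule, the probe set for a gene and each array left out, and the second brightest probe set was added after seeing the data.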

Additional observations from a re-analysis of the deposited data

How the results depend on the processing

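A filter at the 60th percentile left 9 probe sets and 5 genes of the members. Of these 8 probe sets were lower and 0 higher, and 4 genes were lower and 0 higher. With this filter 12640 of all 16406 probe sets tested were called, 4947 of them higher. In the 7 other lists 14 genes were higher with this filter, against 23 in the main fit. The median difference of the members was then −2.60, and −1.19 with no filter, −1.21 after quantile normalization and −1.26 with equal array medians, against −1.47. Quantile normalization moved the median of all probe sets tested to 0.11 and that with equal medians was 0.02, against −0.20, and the share of calls that were higher was 54.6% and 49.8%, against 39.9%. After quantile normalization 2 member genes were higher (*Fzd3* and *Fzd4*) and the *Fzd3* probe set 1434788_at was at 0.16. A fold over 1.8 left 6 higher genes in the 7 other lists. It left 11431 of all 23456 probe sets called, 4129 of them higher. With probe sets averaged within a gene *Fzd3* was at −1.66, *Fzd5* at 0.0368, *Fzd4* at 0.45, *Fzd7* at −1.05, *Lrp6* at −1.36, *Fzd2* at −2.06 and *Fzd6* at −0.41. With the second brightest probe set, which 7 of the 10 genes have, 4 were lower and 2 higher, and *Fzd3*, *Fzd4*, *Fzd5* and *Fzd7* reversed, at −0.35, −1.47, 1.91 and 0.62. Of the 7 other lists 13 genes were then lower and 13 higher, among fewer genes. Calls over all genes were not counted for this choice, where the median of all genes was −0.13. Leaving out 1 L-LY29 array gave 14 to 15 lower and 4 higher member probe sets, with 7 lower genes and 1 higher gene each time. Of all 23456 probe sets, 15401 to 15696 were then called, 6020 to 6196 of them higher. The other lists had 52 to 54 lower and 18 to 20 higher genes, and the medians of the members were −1.53 to −1.41. Calls over all genes were not counted in these fits. Without H-LY29 replicate 1 the median of the members was −1.58, and without H-LY29 replicate 2 it was −1.73. A lone H-LY29 array was assumed to vary like the L-LY29 arrays. No pairing of the arrays is stated, and the replicate numbers were not taken as pairs. Deviations of same-numbered arrays correlated at 0.016 and 0.035. With 2 H-LY29 arrays, whose deviations mirror each other, these values cannot decide on a pairing. With the replicate block 15 member probe sets were lower and 4 higher, and the calls on 1423348_at of *Fzd8* and 1434788_at of *Fzd3* were lost. Of all 23456 probe sets 15113 were called with the block, 5870 of them higher. Repeats of single differences hold the brightest probe set of a gene in most settings both as a probe set and for the gene. The rule on unadjusted p could not lose a call, so counts of these repeats do not measure stability. Of the 493 repeats, 447 kept direction and side of the threshold, 34 no longer passed, 2 newly passed and 10 changed sign. Among these was 1451022_at of *Lrp6*, not passing in any setting, at 0.33 after quantile normalization and 0.10 when array medians were set equal, and between −0.36 and 0.14 when 1 array was left out (0.14 without H-LY29 replicate 1).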
